A study of Mus musculus with 8 samples.

Results

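The genes described here make and take up the fatty acids of the photoreceptor membrane: the desaturases Scd1, Scd2, Fads1 and Fads2, the elongases Elovl2, Elovl4, Elovl5 and Elovl6, the acyl-CoA synthetase Acsl6 and the docosahexaenoic acid (DHA) transporter Mfsd2a. The members were the probes, control spots left out, whose RefSeq accession belongs to one of these 10 genes. There were 14 such probes of 56605 on the array, and 12 of them, from 9 genes, were among the 34306 probes that could be tested. Gene expression was measured in photoreceptor cells at postnatal day 8, from mice whose strain is labelled C57BL/6, on a single-color Agilent mouse microarray, with 4 arrays labelled Lpcat1 HZ (heterozygous) and 4 labelled Lpcat1 KO (knockout). Lpcat1 encodes lysophosphatidylcholine acyltransferase 1, which makes phosphatidylcholine with saturated fatty acids. The KO is global, so every cell of these mice lacks the gene, and the HZ mice that served as control also carry a deleted allele. According to the methods, the KO was made on a C57BL6/N background and crossed with C57BL6/J, and animals homozygous for the Crb1 rd8 mutation were not used, while heterozygous carriers are not mentioned. Cells of the retina were dissociated with trypsin and collected as CD73-positive cells with magnetic beads, a step that can carry over other cells. The number of mice behind an array is not given in the sources used here, so p-values measure the spread between these samples, which may be partly technical.

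Saturated fatty acids receive their first double bond from stearoyl-CoA desaturases such as Scd1 and Scd2. Diet-derived polyunsaturated fatty acids are lengthened by elongases and further desaturated by Fads1 and Fads2 until DHA is formed. Photoreceptor outer segments are known for phospholipids that are very rich in DHA, and for very long-chain polyunsaturated fatty acids, which need Elovl4. DHA also reaches the retina from the blood as lysophosphatidylcholine, which Mfsd2a carries across membranes, and Acsl6 traps DHA in the cell by joining it to coenzyme A.

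Sequences of 250 bases before the transcript start were found in the RefSeq table of GRCm38.p6 for 7 of the 10 genes, in 10 windows. Scd1, Scd2 and Fads1 had no entry. The windows of Mfsd2a and Elovl4 are shown because these genes had the lowest unadjusted p-values among the members, and that of Elovl5 because, among the tested probes that represent a gene, it had the largest log2 deviation of an array from its group mean. Each reads in the direction of transcription and ends at the base before the start, on the minus strand at chr4:122961189-122961438 for Mfsd2a, on the minus strand at chr9:83806306-83806555 for Elovl4 and on the plus strand at chr9:77917115-77917364 for Elovl5. Capitals mark matches, on either strand, to the motifs described after them.
Mfsd2a: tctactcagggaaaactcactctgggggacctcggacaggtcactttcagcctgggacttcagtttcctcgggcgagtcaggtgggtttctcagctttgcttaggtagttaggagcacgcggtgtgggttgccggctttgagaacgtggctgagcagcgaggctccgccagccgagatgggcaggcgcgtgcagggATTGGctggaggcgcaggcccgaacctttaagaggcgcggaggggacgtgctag
Elovl4: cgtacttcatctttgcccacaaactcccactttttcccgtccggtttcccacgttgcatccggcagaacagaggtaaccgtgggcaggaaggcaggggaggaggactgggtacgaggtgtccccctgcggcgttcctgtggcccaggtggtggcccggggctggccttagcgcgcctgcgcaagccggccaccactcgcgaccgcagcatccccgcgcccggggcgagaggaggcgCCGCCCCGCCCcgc
Elovl5: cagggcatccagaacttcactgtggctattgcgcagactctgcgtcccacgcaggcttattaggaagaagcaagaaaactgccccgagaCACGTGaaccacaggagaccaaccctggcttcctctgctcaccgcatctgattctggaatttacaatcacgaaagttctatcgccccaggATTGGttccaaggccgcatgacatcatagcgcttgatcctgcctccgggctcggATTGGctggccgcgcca

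A CCAAT box (CCAAT, here on the opposite strand as ATTGG) began 54 bases before the start of Mfsd2a and 71 and 17 bases before that of Elovl5. The CCAAT box was found in the windows of 3 of the 7 genes and in 33.8% of all 32851 windows of this length. The E-box CACGTG lay 161 bases before the start of Elovl5, the only gene of the 7 that held it, and was found in 6.02% of all windows. The GC box GGGCGG (here on the opposite strand) was present as 2 overlapping matches 14 and 9 bases before the start of Elovl4, in windows of 4 of the 7 genes and in 32.7% of all windows. The sterol regulatory element TCACNCCAC and the core of the CRX motif, TAATCC, were found in 0 of the 7 genes, against 1.05% and 6.25% of all windows. These matches describe the letters of the windows and were not tested for binding.

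All values below are normalized log2 signals, that is, the log2 intensity of a probe minus the 75th percentile of its array, and each difference is KO minus HZ. The 8 arrays lay on the same slide, with the KO arrays in row 1 and the HZ arrays in row 2, and row effects and genotype cannot be told apart. The 75th percentile lay between 882 and 1024 intensity units, between 59.5% and 64.6% of the probes of an array were well above background, and 0 spots were saturated. HZ replicate 4 held 458 non-uniform spots, against 2 to 25 on the other arrays. The probe for Lpcat1 itself did not tell the groups apart (difference -0.037, standard error, SE, 0.11, limma adjusted p = 0.931), and since where the probe lies with respect to the deleted part was not analysed here, this value does not check the genotypes, which are given as labelled. The rod marker list, led by Pde6g, Rom1 and Nrl, was measured in full, with 14 of 14 genes tested and a median difference of -0.13. The mean was lower in KO for 12 of them and higher for 2, beside 49.5% and 50.5% of all tested probes, and 0 had an unadjusted limma p under 0.05.

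Of the 9 tested genes 0 passed the stricter thresholds of the methods, more than 1.2-fold with an adjusted p below 0.05 (limma, Benjamini-Hochberg adjustment), beside 0.0% of all tested probes, and 0 passed them when replicate numbers were blocks of the fit. At the looser thresholds, more than 1.5-fold with an adjusted p below 0.5, Mfsd2a was called lower in KO, against 0.813% of all probes, and 0 members were called higher, against 0.227%. With the block, the shares of all probes were 2.66% and 0.74%, and Mfsd2a was again the only member called. At an unadjusted p under 0.05, 1 member was lower (Mfsd2a, against 3.48% of all probes) and 1 was higher (Elovl4, against 4.69%). The mean was lower in KO for 5 genes (Scd2, Elovl5, Elovl6, Acsl6 and Mfsd2a) and higher for 4 (Fads1, Fads2, Elovl2 and Elovl4), beside 49.5% and 50.5% of all tested probes. With normexp background correction Fads1 (-0.013) and Fads2 (-0.24) were lower in KO. The median difference of the members was -0.12, beside 0.0023 over all tested probes, and 0.028 without HZ replicate 2. The arrays measure RNA of whole cell samples, in which fewer cells of a type and less RNA per cell cannot be told apart.

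**Figure D1:**
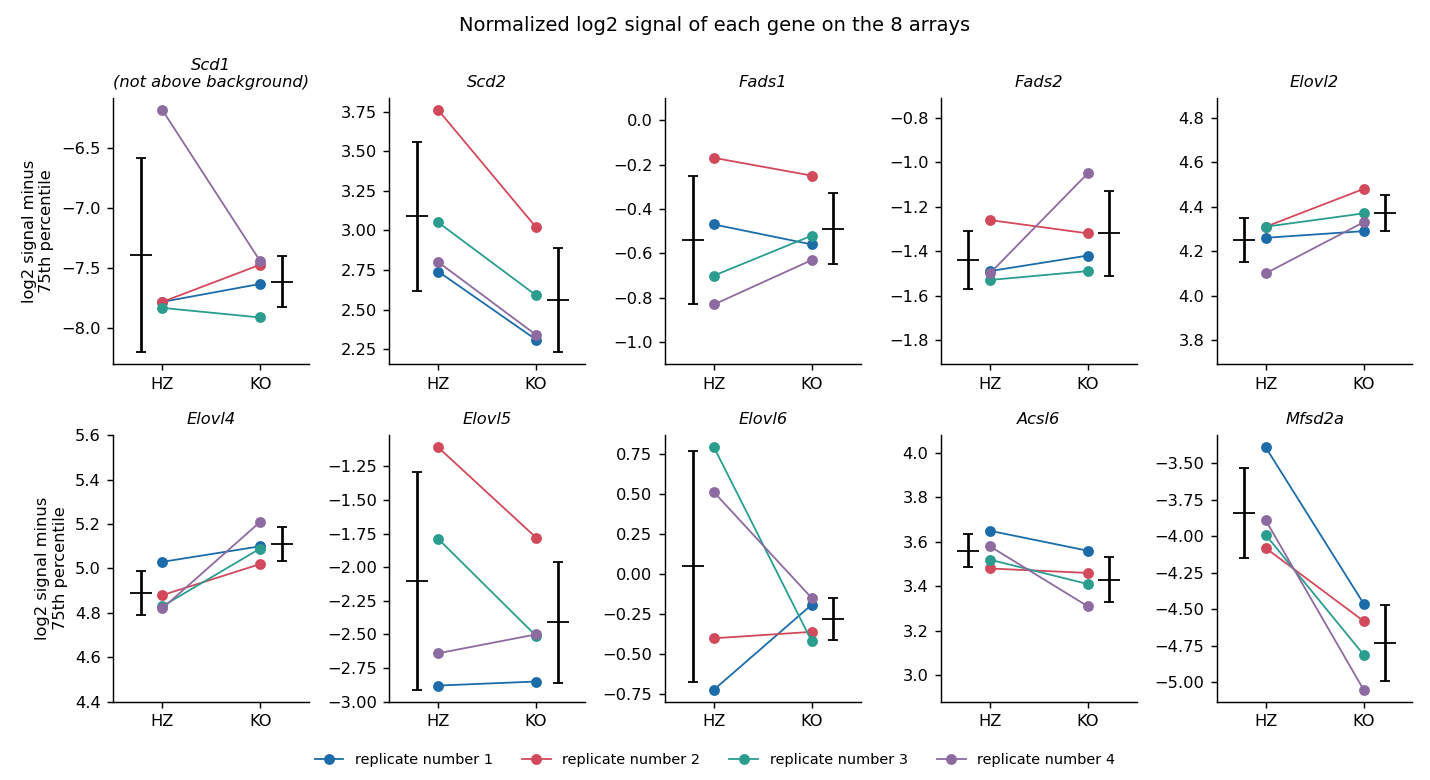
Normalized log2 signal (log2 intensity minus the 75th percentile of the array) of the probe that represents each of the 10 genes, with HZ and KO arrays of the same replicate number joined by a line and black bars for the mean ± SD of 4 arrays; each panel has its own vertical scale. Only Mfsd2a shows KO arrays, from -5.05 to -4.46, that all lie below the HZ arrays, from -4.08 to -3.39.

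Among the desaturases, Scd2, the stearoyl-CoA desaturase of brain and other neural tissue, gave 2.74, 3.76, 3.05 and 2.80 on HZ replicates 1 to 4 and 2.31, 3.02, 2.59 and 2.34 on KO replicates 1 to 4. The groups overlapped, since KO replicate 2 was above HZ replicates 1 and 4, but each KO array was below the HZ array of the same number. The means were 3.09 ± 0.47 and 2.56 ± 0.33 (SD, n = 4 each), and the difference was -0.52 (SE 0.25, 95% interval -1.11 to 0.062, limma adjusted p = 0.639). Within the same-number pairs the differences were -0.43, -0.75, -0.46 and -0.46. In the fit that holds replicate numbers as blocks, the SE was 0.089 and the 95% interval -0.75 to -0.30, with an unadjusted limma p of 0.00199 in place of 0.0734 and an adjusted p of 0.309. At an unadjusted p under 0.05, the blocked fit held 2 members lower (Scd2 and Mfsd2a, against 6.07% of all probes) and 0 higher (against 5.82%). Scd1, the stearoyl-CoA desaturase best known from liver, fat and skin glands, was well above background on 0 of 8 arrays and was not tested. Its probe gave 3.8 to 12.2 intensity units, and the log2 signal lay between -7.83 and -6.18 in HZ and between -7.91 and -7.44 in KO.

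Fads1 and Fads2, the front-end desaturases of the DHA pathway, showed small differences that depended on the probe. Fads1 gave -0.47, -0.17, -0.70 and -0.83 in HZ and -0.56, -0.25, -0.52 and -0.63 in KO. These groups overlapped throughout, and the difference was 0.052 (SE 0.16, 95% interval -0.31 to 0.42, limma adjusted p = 0.933). A dimmer probe of Fads1 gave a difference of 0.47 (SE 0.43), with KO replicate 2 at -2.20 and the other 7 arrays between -4.30 and -4.04. Fads2 gave -1.49, -1.26, -1.53 and -1.50 in HZ and -1.42, -1.32, -1.49 and -1.05 in KO, also with overlap, and a difference of 0.12 (SE 0.12, 95% interval -0.15 to 0.40, limma adjusted p = 0.783). A dimmer probe of Fads2 disagreed in direction. It gave -3.74, -3.47, -3.37 and -3.01 in HZ and -3.86, -3.67, -3.54 and -3.35 in KO, lower in KO in 4 of 4 same-number pairs, with a difference of -0.20 (SE 0.17) and a blocked adjusted p of 0.416. The direction of Fads2 is therefore not settled by these probes.

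Among the elongases, Elovl4, which makes very long-chain polyunsaturated fatty acids and is mutated in Stargardt-like macular dystrophy, gave 5.03, 4.88, 4.83 and 4.82 in HZ and 5.10, 5.02, 5.09 and 5.21 in KO. The groups overlapped by a single array, as HZ replicate 1 was just above KO replicate 2. The means were 4.89 ± 0.10 and 5.11 ± 0.077 (SD, n = 4 each), and the difference was 0.22 (SE 0.085, 95% interval 0.02 to 0.41), with an unadjusted limma p of 0.0347 and an adjusted p of 0.585. KO was higher in 4 of 4 same-number pairs, by 0.076, 0.14, 0.26 and 0.39. The unadjusted p was 0.0543 in the blocked fit and 0.169 with quantile normalization.

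Elovl2, which lengthens the precursors from which DHA is made, gave 4.26, 4.31, 4.31 and 4.10 in HZ and 4.29, 4.48, 4.37 and 4.33 in KO. The groups overlapped, with KO replicate 1 below HZ replicates 2 and 3, while KO was the higher array in 4 of 4 same-number pairs. The difference was 0.12 (SE 0.087, 95% interval -0.078 to 0.32, limma adjusted p = 0.726). Elovl2 and Elovl4 were the 2 members that were higher in KO in every pair, which was the case for 14.8% of all tested probes.

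Elovl5, the elongase of shorter polyunsaturated fatty acids, gave -2.88, -1.11, -1.79 and -2.64 in HZ and -2.85, -1.78, -2.51 and -2.50 in KO. Replicate 2 was the highest array and replicate 1 the lowest in both groups. The difference of -0.30 (SE 0.41, 95% interval -1.24 to 0.63, limma adjusted p = 0.839) was smaller than the SD of the HZ arrays, 0.81, and was 0.028 without HZ replicate 2. A probe for a predicted Elovl5 transcript was well above background on 1 of 8 arrays and was not tested. Elovl6, which lengthens palmitate to stearate, gave -0.72, -0.40, 0.79 and 0.51 in HZ and -0.19, -0.36, -0.42 and -0.15 in KO. The KO arrays lay close together (SD 0.13) and the HZ arrays did not (SD 0.72), with replicates 3 and 4 above, replicate 2 within and replicate 1 below the KO range. The difference was -0.33 (SE 0.32, 95% interval -1.06 to 0.41, limma adjusted p = 0.784). It was -0.58 when HZ replicate 1 was left out and -0.077 when HZ replicate 3 was.

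Acsl6, the acyl-CoA synthetase that prefers DHA, gave 3.65, 3.48, 3.52 and 3.58 in HZ and 3.56, 3.46, 3.41 and 3.31 in KO. The groups overlapped, and KO was lower in 4 of 4 same-number pairs. The difference was -0.12 (SE 0.087, 95% interval -0.32 to 0.076, limma adjusted p = 0.72). A dimmer probe of Acsl6 gave a difference of 0.022 (SE 0.12). Lower in KO in every pair were 3 members (Scd2, Acsl6 and Mfsd2a), a pattern found for 10.4% of all tested probes.

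Mfsd2a, the transporter of DHA as lysophosphatidylcholine, known from the endothelium of brain and retina and from the retinal pigment epithelium (RPE), gave -3.39, -4.08, -3.99 and -3.89 in HZ and -4.46, -4.58, -4.81 and -5.05 in KO. Every KO array lay below every HZ array, which was the case for no other member and for 2.14% of all tested probes. For 0 members did every KO array lie above every HZ array, beside 4.19% of all tested probes. The means were -3.84 ± 0.31 and -4.73 ± 0.26 (SD, n = 4 each), and the difference was -0.88 (SE 0.19, 95% interval -1.31 to -0.46), 1.85-fold lower in KO, with an unadjusted limma p of 0.00138 and an adjusted p of 0.362. A larger difference in either direction was found for 1.42% of all tested probes. The same-number pairs differed by -1.07, -0.50, -0.82 and -1.15, and the blocked fit gave a SE of 0.13 and an adjusted p of 0.308. The probe was dim, at 28.1 to 92.8 intensity units, but well above background on 8 of 8 arrays. With normexp background correction, which adds an offset of 50 intensity units to every signal, the difference was -0.17 (limma adjusted p = 0.56). The call at the looser thresholds was also lost with quantile normalization (-0.74, limma adjusted p = 0.527), without a filter on dim probes (limma adjusted p = 0.711), and without HZ replicate 1 or 3 or KO replicate 2, 3 or 4, with differences of -0.94 to -0.73.

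**Figure D2:**
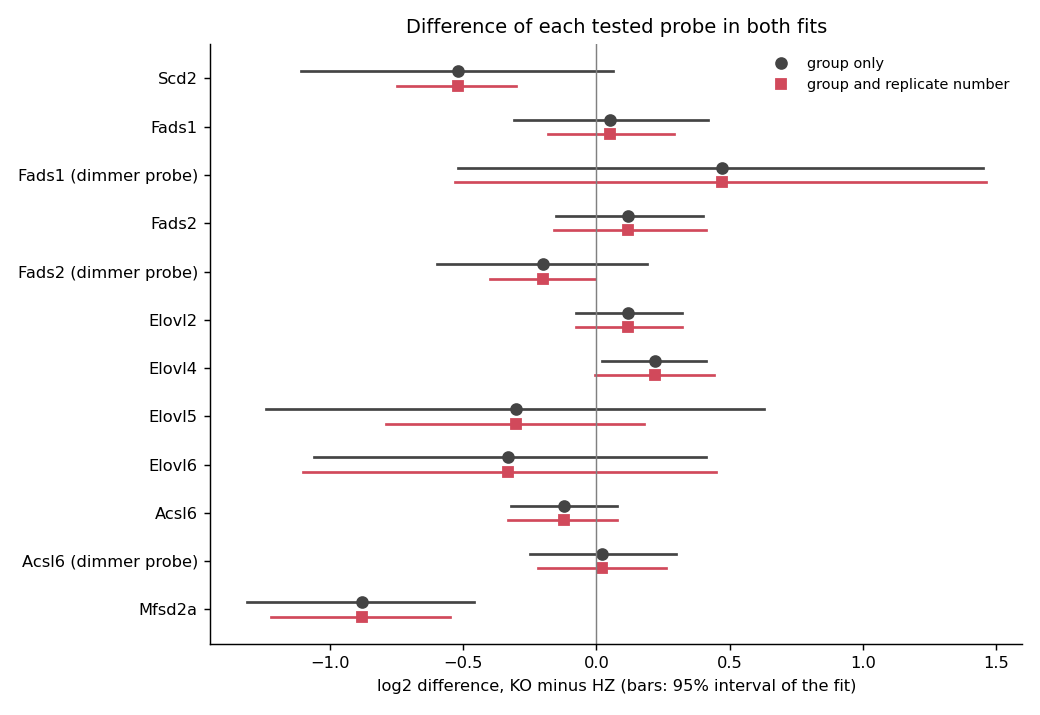
Log2 difference, KO minus HZ, of the 12 tested probes with the 95% interval of the limma fit, for the fit with group only (circles) and with the replicate number as a block (squares). The interval of Scd2 runs from -1.11 to 0.062 without the block and from -0.75 to -0.30 with it, and that of Mfsd2a lies below 0 in both fits.

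**Figure D3:**
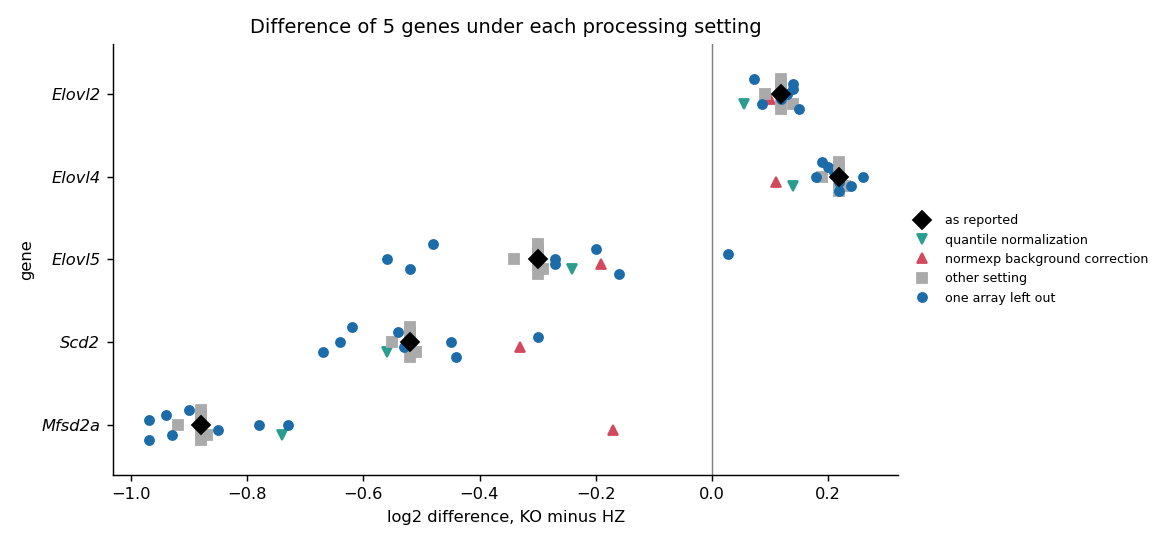
Log2 difference, KO minus HZ, of 5 member genes under each processing setting: as reported, with quantile normalization, with normexp background correction, with other settings, and with 1 array left out at a time. Mfsd2a moves from -0.88 to -0.17 with normexp background correction, and Elovl5 crosses 0 to 0.028 when HZ replicate 2 is left out.

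The tested RPE markers, like Mfsd2a, had lower means in KO. Of 19 RPE markers, 17 were tested, and 17 of 17 had a lower mean in KO, beside 49.5% of all tested probes, with a median difference of -1.67. Of them, 15 had an unadjusted limma p under 0.05, where 3.48% of all tested probes were lower at that p. The list was chosen with earlier results of these data known, so these counts are a description only. Their summed signal, in units of the 75th percentile of the array, was 17.9 to 45.0 in HZ and 8.44 to 15.8 in KO, without overlap. Dct, an enzyme of melanin synthesis, gave 4.10, 2.36, 3.34 and 3.15 in HZ and 2.36, 1.67, 2.15 and 0.97 in KO, and Ttr, the transthyretin gene, gave a difference of -2.0 (SE 0.55). Like Mfsd2a, Dct was highest on HZ replicate 1 and lowest on KO replicate 4, while Krt18, a keratin gene of the same list, differed by -0.12 (SE 0.16). Lrat and Cldn19 were not tested, and Cldn19 was well above background on 0 arrays. The genes whose signal over the 8 arrays was most like that of Mfsd2a were Slc16a8, the lactate transporter of the RPE (Pearson's r = 0.992 over 8 arrays, difference -0.79), Cltrn (r = 0.982, difference -0.77) and Acin1 (r = 0.981, difference -0.19). These genes share arrays and groups with Mfsd2a, and the values describe likeness only.

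The tested markers of endothelium, the other cell type known for Mfsd2a, did not differ in 1 direction, and the list covers these cells only in part. Of 10 endothelial markers 6 were tested, with 4 lower and 2 higher in KO, beside 49.5% and 50.5% of all tested probes, and a median difference of -0.055. The summed signal of these 6 was 1.06 to 3.19 in HZ and 1.03 to 2.05 in KO. Pecam1 differed by -0.0054 (SE 0.18), Egfl7 by 0.43 (SE 0.21) and Kdr by -0.79 (SE 0.62), while Cdh5, Tie1, Tek and Emcn were well above background on 0 arrays. The other tested markers were Cldn5, with the largest difference at 1.24 (SE 0.61), Slco1a4 at -0.79 (SE 0.37) and Esam at -0.10 (SE 0.19). With the block, Kdr, lower in 4 of 4 pairs, had an unadjusted limma p of 0.00996 (adjusted p = 0.352) and Egfl7, higher in 4 of 4 pairs, one of 0.0113 (adjusted p = 0.357). In that fit 2 of the 6 markers were lower and 2 higher at an unadjusted p under 0.05, against 6.07% and 5.82% of all tested probes. Microglial markers were higher in KO in 11 of 11 genes, beside 50.5% of all tested probes, with a median difference of 0.81. Of them, 5 had an unadjusted limma p under 0.05, where 4.69% of all tested probes were higher at that p. With the block, 2 of the 11 were higher at that p, against 5.82%, and 9 at the looser thresholds, against 0.74%. Only 1 of the 11 was higher in KO in every same-number pair, against 14.8% of all tested probes. The summed signals overlapped, at 2.52 to 6.22 in HZ and 4.29 to 8.09 in KO, and Csf1r, Ctss and Cx3cr1 were the brightest. The part of RPE, endothelial or microglial RNA in the difference of Mfsd2a was not tested.

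The members were also compared by replicate number, which is also the slide column. At an unadjusted p under 0.05, 3 of the 9 tested genes differed between replicate numbers in limma's moderated F test (Scd2, Elovl5 and Fads1), against 13.8% of all tested probes, and 0 did so at an adjusted p under 0.05, against 0.0%. Scd2 gave an unadjusted p of 0.00322 (limma adjusted p = 0.275), Elovl5 an unadjusted p of 0.0126 (limma adjusted p = 0.30) and Fads1 an unadjusted p of 0.0429 (limma adjusted p = 0.351). In all 3 genes replicate 2 was the highest array in HZ and in KO, a pattern found for 15.5% of all tested probes. Relative to the mean of its own group, replicate 2 of HZ and KO deviated by 0.68 and 0.45 for Scd2, by 1.00 and 0.63 for Elovl5 and by 0.37 and 0.24 for Fads1. The dimmer Fads2 probe also differed by number (unadjusted p = 0.0116, limma adjusted p = 0.30), but there replicate 4 was the highest in both groups. For Acsl6 and Mfsd2a replicate 1 was the highest in both groups, so that 5 of 9 members had the same highest number in both, beside 40.5% of all tested probes.

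**Figure D4:**
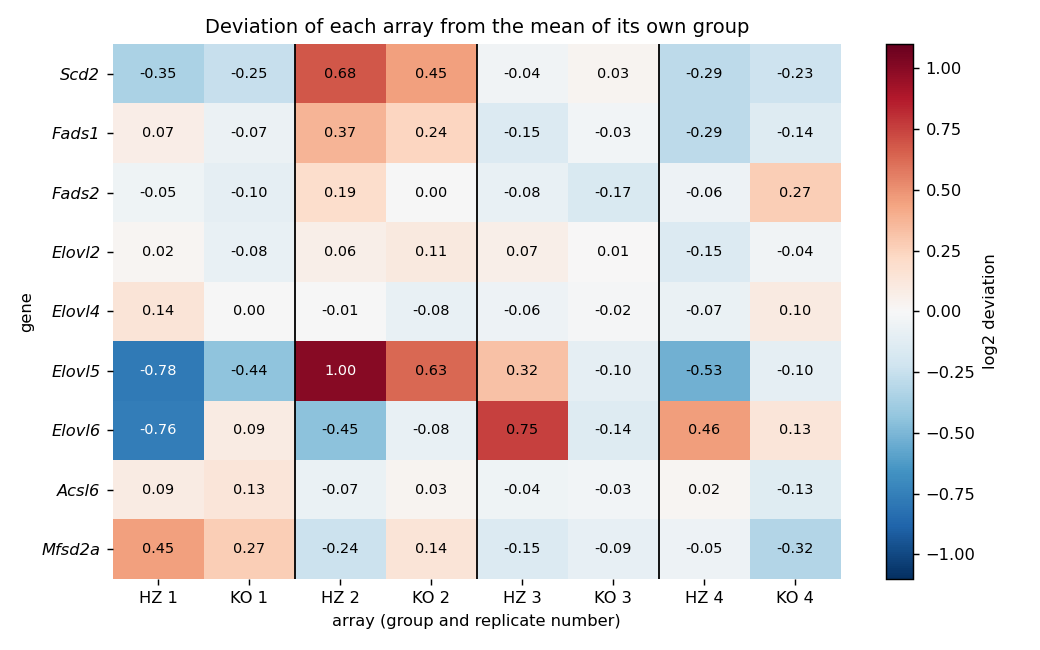
Deviation of the normalized log2 signal of each array from the mean of its own group, for the 9 tested genes, with HZ and KO arrays of the same replicate number side by side; red is above and blue below the group mean. Replicate 2 is above the mean in both groups for Scd2 (0.68 and 0.45), Elovl5 (1.00 and 0.63) and Fads1 (0.37 and 0.24).

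Of 8 tested Muller glia markers, 5 had an unadjusted p under 0.05 for the replicate number, beside 13.8% of all tested probes, and 0 had an adjusted p under 0.05. Dkk3, a secreted Wnt modulator that marks these glia, gave 0.47, 2.56, 1.46 and 0.80 in HZ and 0.74, 1.93, 1.04 and 0.30 in KO, with replicate 2 highest in both groups and a limma adjusted p of 0.274 for the replicate number. Glul, the glutamine synthetase gene, was also highest on replicate 2 in both groups (1.72 and 1.67), while Clu had its highest HZ array at replicate 1. The endothelial marker Kdr followed the same order as Dkk3, with 1.29 on HZ replicate 2 and 0.15 on KO replicate 2. The summed signal of the Muller glia list was 19.7 to 21.8 in HZ and 12.3 to 18.7 in KO. Clu, the brightest gene of this list and the largest part of the sum on each array, differed by -0.56 (SE 0.15). Dkk3 differed by -0.32 (SE 0.50), Glul by 0.071 (SE 0.16) and Slc1a3 by -0.026 (SE 0.28). The median difference was -0.23, with 7 of 8 genes lower in KO, beside 49.5% of all tested probes, and 2 lower at an unadjusted limma p under 0.05, against 3.48%. These 2 were Clu and Car14, which had the largest difference of the list at -1.28 (SE 0.26). Hes1 was not tested, and the part of these cells in the signal of Scd2, Elovl5 and Fads1 was not tested. The genes most like Scd2 over the 8 arrays were Gpx8, a peroxidase of the endoplasmic reticulum (Pearson's r = 0.991, difference -0.47), the sterol transfer protein gene Stard4 (r = 0.982, difference -0.20) and Thsd7a (r = 0.977, difference -0.52). Those most like Elovl6 were Dmrtb1 (r = 0.969), Cd300lf (r = 0.934) and Lilra6 (r = 0.93).

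Around these members, 47 other genes of fatty acid desaturation, elongation, activation, transport and DHA handling were examined, of which 40 were tested. The mean was lower in KO for 21 and higher for 19, beside 49.5% and 50.5% of all tested probes, with a median difference of -0.016. An adjusted p of 0.05 was passed by 0 genes, beside 0.0% of all tested probes. At the looser thresholds 2 were called lower, against 0.813%, and 0 higher, against 0.227%. In 3 genes every KO array lay below every HZ array, against 2.14%, and in 3 every KO array lay above, against 4.19%. At an unadjusted limma p under 0.05, 2 were higher, against 4.69% of all tested probes, and 4 were lower (Elovl7, Acsl3, Fads3 and Ppara), against 3.48%. The lowest of them, Elovl7, an elongase of saturated fatty acids, gave -1.48, -2.74, -1.68 and -1.97 in HZ and -3.21, -3.16, -2.85 and -3.35 in KO, a difference of -1.18 (SE 0.26, limma adjusted p = 0.362) without overlap of the groups. From high to low its HZ arrays ran 1, 3, 4 and 2, the order also held by the RPE marker Dct. The KO arrays differed in order, with 3, 2, 1 and 4 for Elovl7 and 1, 3, 2 and 4 for Dct. The part of RPE RNA in the difference of Elovl7 was not tested. Fads3, a desaturase of the Fads gene cluster that acts on sphingoid bases, gave -1.87, -2.09, -2.23 and -1.95 in HZ and -2.60, -2.45, -2.76 and -2.78 in KO, a difference of -0.61 (SE 0.12, limma adjusted p = 0.328), again without overlap. These are the 2 genes of the list past the looser thresholds without the block. With it, 3 were called lower, against 2.66% of all tested probes, and 0 higher, against 0.74%. Acsl3, an acyl-CoA synthetase of lipid droplets, differed by -0.73 (SE 0.25, unadjusted p = 0.0211 by limma) and also by replicate number (unadjusted p = 0.0299 by limma). It was lower in 4 of 4 same-number pairs and was called lower at the looser thresholds with the block (limma adjusted p = 0.319).

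Genes of fatty acid breakdown and its control were also in the list. Scp2, a peroxisomal thiolase and sterol carrier, differed by 0.28 (SE 0.10, limma adjusted p = 0.525), and the nuclear receptor gene Ppara by -0.31 (SE 0.11, limma adjusted p = 0.531). Fabp3, a fatty acid binding protein, was among the 5 largest differences at -0.37 (SE 0.28). Fads6, Elovl3, Hacd4, Acsbg1, Slc27a6, Cd36 and Pparg were not tested because their probes were well above background on too few arrays.

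**Figure D5:**
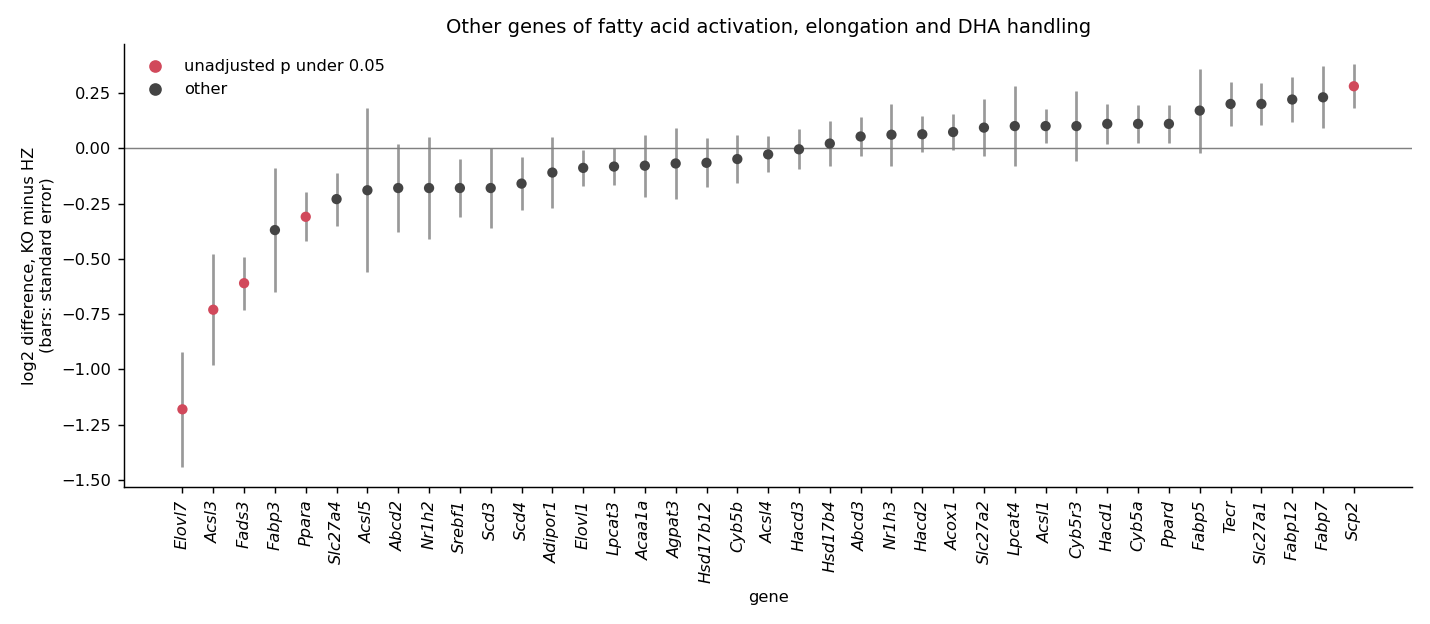
Log2 difference, KO minus HZ, with its limma SE, of 39 of the 40 tested genes of the wider fatty acid and DHA list, ordered by size; red marks an unadjusted p under 0.05. The genes start with Elovl7 at -1.18 and end with Scp2 at 0.28, and the median over the 40 genes is -0.016.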

How the data were processed

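After scanning, the authors deposited the spots' signal intensity, background-subtracted by Agilent Feature Extraction 10.7.1.1 (version per the labels). They also deposited log2 values shifted by the 75 percentile with GeneSpring, used here as an alternative. Members and lists were chosen with earlier results of these data known. From the log2 intensity, the 75th percentile of the array over non-control spots was subtracted. Outlier spots were dropped and replicate spots averaged by probe. A probe entered the tests if it was well above background on 4 or more arrays and had 3 or more values a group. The tests were two-sided and used limma 3.58.1 (lmFit, eBayes) in R 4.3.3, with Benjamini-Hochberg adjustment over 34306 probes. Names came from RefSeq accessions (GRCm38.p6, names only), which matched for 32994 of 56605 probes. A gene is represented by its tested probe with the highest mean. Named beside the members are Lpcat1, the 5 largest differences and unadjusted p under 0.05 of the wider list, the 3 brightest genes of a marker list and the 3 genes most like a member, for the 3 members with the largest difference. Elovl7, Fads3 and Dct are given per array by choice after their values were seen. Named by the same kind of choice are Lrat, Cldn19, Hes1, Car14, Slc1a3 and the endothelial markers other than the 3 brightest. Marker lists of cones, bipolar, amacrine and ganglion cells and red blood cells gave median differences of 0.31, -0.31, 0.13 and 1.61, the last 2 from 2 tested genes each. After subtraction of the group mean, same-numbered arrays correlated with r of 0.164 to 0.337, above 0.1 in 4 of 4 pairs, and differently numbered ones with r of -0.34 to 0.118. The numbers were therefore taken as pairs. They coincide with the slide column, and what else they share is not given in the sources used here. In a simulation of 34306 probes with 200 changes of 1.5 (log2), 85.5% were recovered for KO against HZ with 6.04% false calls, and 29% for the replicate number. The simulated noise was drawn from the spread left after group and replicate number were fitted, while the KO test held group only. The recovery for KO against HZ may therefore be overstated. The change of 1.5 was also larger in size than any member difference, of which the largest was -0.88. Figures were drawn with matplotlib 3.10.9. The number of arrays limits the precision. Alternatives changed the normalization (quantile), the background correction (normexp, offset 50), the probes of the percentile, the dim-probe filter, eBayes (trend and robust), the test (the methods' t-test), the values (those deposited as log2) or the probe rule (mean of probes), added blocks for the replicate number, or left out 1 array. A gene that the naming rule takes in is not reported here. Arrays of whole retina were not analysed here.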

Additional observations from a re-analysis of the deposited data

Results flagged for a closer look

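Of 30 groups of 4 arrays examined over the member probes and Lpcat1, 3 held an array far from the others, where chance alone gives about 1.5. Scd1 on HZ replicate 4 had a normalized log2 signal of -6.18, against -7.83 to -7.78 on the other HZ arrays. Its intensity of 12.2, against 4.03 to 4.66, was not well above background. The dimmer Fads1 probe on KO replicate 2 had -2.20, against -4.30 to -4.04, at an intensity of 217 against 46.2 to 56.4, while the brighter Fads1 probe on the same array had -0.25, the highest of the KO arrays. Fads2 on HZ replicate 2 had -1.26, against -1.53 to -1.49, at an intensity of 429 against 311 to 346.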

How the results depend on the processing

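The count of members past the looser thresholds, 1 as reported, was 0 with quantile normalization, with normexp background correction and without a filter on dim probes, and 0 to 1 with each array left out. The count at an unadjusted p under 0.05, 2 as reported (Mfsd2a and Elovl4), was 1 without a filter and 1 to 3 with each array left out. With normexp background correction the count was also 2, but for Acsl6 (-0.25) and Fads2 (-0.24), both lower in KO. Mfsd2a (-0.17) and Elovl4 (0.11) did not pass that threshold there. With quantile normalization, and with the replicate number as a block, the 2 members were Mfsd2a and Scd2, without Elovl4. The methods' t-test held 2 members at an unadjusted p under 0.05 and 0 past the stricter thresholds. The median difference of the members, -0.12 as reported, was -0.16 to 0.028 with each array left out, the highest without HZ replicate 2, and that of the wider list, -0.016 as reported, was 0.031 with the mean of the probes of a gene. Fads1 was -0.013 with normexp background correction and -0.045 to 0.18 with each array left out, below 0 without HZ replicate 4 and without KO replicate 2 (-0.027). Fads2 was -0.24 with normexp background correction and -0.04 with the mean of its probes, and Elovl5 was -0.56 to 0.028 with each array left out, above 0 without HZ replicate 2. The cause of these changes was not tested. Scd2, Elovl2, Elovl4, Elovl6, Acsl6 and Mfsd2a kept their direction under all 18 alternatives, with ranges of -0.67 to -0.30, 0.055 to 0.15, 0.11 to 0.26, -0.58 to -0.077, -0.25 to -0.051 and -0.97 to -0.17. The adjusted p of Mfsd2a lay between 0.245 and 0.733. With the replicate number as a block, calls at the looser thresholds over all probes moved from 279 to 913 lower and from 78 to 254 higher, Mfsd2a was again called lower (adjusted p = 0.308), and no other member call changed at either adjusted threshold. The dim signal of the Mfsd2a probe, 28.1 to 92.8 intensity units, limits how far its difference can be read.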
